A study of Gallus gallus with 24 samples.

Results

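Retinoic acid handling was followed through 10 genes in explants of chick retinal pigment epithelium (RPE), the pigmented layer behind the retina. The genes are the retinaldehyde dehydrogenases ALDH1A1, ALDH1A2 and ALDH1A3, the retinaldehyde reductase DHRS3, the retinoic acid hydroxylases CYP26A1, CYP26B1 and CYP26C1, and the nuclear receptors RARA, RARB and RXRG. They were picked by symbol from the deposited table of 24356 gene rows. Each of the 10 has 1 row, and all 10 had a mean of at least 10 normalized counts over the libraries, the minimum that left 15001 genes for testing. ALDH1A1 reached that mean only through its libraries with FGF2. Polyadenylated RNA of whole explants from specific pathogen free chicken embryos at embryonic day 4 was sequenced after 24 or 48 h in culture. At each time there were 4 groups, which received dichloroacetate (DCA, 20 mM) together with fibroblast growth factor 2 (FGF2, 10 ng/ml), FGF2 alone, DCA alone, or maintenance medium alone (control). Each of the 8 groups had 3 biological replicates, and each replicate pooled 3 explants. FGF2 is a growth factor that can turn embryonic chick RPE into neural retina, and DCA inhibits the pyruvate dehydrogenase kinases and so favours the oxidation of pyruvate in mitochondria.

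Retinoic acid is the signalling form of vitamin A. Retinol is first oxidised to retinaldehyde, mainly by RDH10 in the embryo, and DHRS3 reduces retinaldehyde back to retinol. The ALDH1A enzymes oxidise retinaldehyde to retinoic acid, the CYP26 enzymes hydroxylate retinoic acid and so start its removal, and heterodimers of a retinoic acid receptor (RAR) with a retinoid X receptor (RXR) bind DNA and change transcription when the acid is present. RARB, CYP26A1 and DHRS3 are themselves genes that retinoic acid induces in many embryonic tissues. In the vertebrate eye the enzymes are laid out in zones, with ALDH1A1 in the dorsal and ALDH1A3 in the ventral retina, ALDH1A2 in the mesenchyme around the eye, and CYP26 enzymes in a band of retina between the dorsal and ventral sources.

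Depth, recovered from the deposited values, was 32.8 to 72.7 in units of 1e6 reads per library (median 37.5), and the deepest libraries were the third FGF2 replicate at 24 h (69.0) and the third at 48 h (72.7). Replicates of a group correlated across genes at Pearson r of 0.959 to 0.980. The summed level of 12 RPE markers was 195452 to 255472 normalized counts in the 6 control libraries, where all 12 were detected. The same control libraries held 156411 to 390931 normalized counts of 16 mesenchyme markers, so markers of both tissues were present in the explants. The first DCA replicate at 48 h stood apart from the other libraries of its group, with 86651 normalized counts of RPE markers against 173470 and 143924 in the other replicates. Calls of the 10 genes that change without it are given beside the result. All values are normalized counts, which compare libraries for a gene but do not compare genes, since they are not divided by transcript length. Fold changes are log2 differences ± SE from limma on log2(normalized count + 1), and a gene was called at an adjusted p under 0.05.

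With FGF2 alone for 24 h, 6 of the 10 genes were called against control, 3 higher (ALDH1A3, CYP26B1, RXRG) and 3 lower (ALDH1A2, DHRS3, RARB), against 29.8% of all genes tested (15.5% higher and 14.3% lower). With FGF2 alone for 48 h, 6 of the 10 were called, 3 higher (ALDH1A1, ALDH1A3, RARA) and 3 lower (ALDH1A2, DHRS3, RARB), against 54.6% of all genes (26.9% higher and 27.7% lower). ALDH1A1 was open to testing only because of its level with FGF2, so its place in this count is a description. The share of called genes among the 10 at 48 h was thus close to the background, so what follows rests on the single genes and their sizes. In 4 genes, ALDH1A2, ALDH1A3, DHRS3 and RARB, all 12 libraries with FGF2 lay on 1 side of all 12 libraries without it, as did those of 2.79% of all genes tested. Between 2 groups of 3 libraries, a lack of overlap was common. It held for 44.8% (24 h) and 64.9% (48 h) of all genes for FGF2 against control, and for 8 of the 10 members at each time. For the other comparisons of 2 groups it held for 36.6% to 61.2% of all genes, so it is given below as a description only. The FGF2 and DCA comparisons at a time share the control libraries, and the DCA + FGF2 comparison shares the FGF2 libraries, so their values are set side by side without a test of their likeness.

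ALDH1A3 (ENSGALG00000033365), which makes retinoic acid in ventral retina, rose with FGF2 more than any other member called at 24 h. Its level was 77341, 56665 and 62769 normalized counts after 24 h of FGF2, against 12468, 7954 and 7917 in 24 h controls. At 48 h it was 67574, 66096 and 75034 with FGF2, against 6476, 10335 and 5487 in controls. Every FGF2 library was several times above every control library at both times. The ratio of means was 6.94 at 24 h (log2 2.82 ± 0.22, limma adjusted p = 2.6e-09) and 9.36 at 48 h (3.28 ± 0.22, adjusted p = 5e-11). The FGF2 effect at 48 h minus that at 24 h was 0.46 ± 0.31 (adjusted p = 0.28). With DCA + FGF2 at 48 h the libraries held 89183, 75742 and 72906 and overlapped those with FGF2 alone, and the difference was 0.19 ± 0.22 (adjusted p = 0.5). At 24 h the DCA + FGF2 libraries held 39794, 38527 and 57053, and the difference of -0.55 ± 0.22 missed the threshold narrowly (adjusted p = 0.051). That difference passed with a pseudocount of 5 (adjusted p = 0.049) and without the third DCA + FGF2 replicate (-0.73, adjusted p = 0.019). DCA alone gave 10489 ± 1596 against 7433 ± 2562 in 48 h controls (SD, n = 3 each), with overlapping libraries (0.54 ± 0.22, adjusted p = 0.058, and 0.80, adjusted p = 0.0068, without the second control replicate).

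ALDH1A2 (ENSGALG00000004270), the synthesis enzyme of periocular mesenchyme, went the other way. It stood at 1892, 2510 and 2311 normalized counts after 24 h of FGF2, against 7336, 7758 and 5700 in controls, and at 698, 672 and 639 after 48 h of FGF2, against 9115, 8092 and 7975 in controls. The 48 h FGF2 libraries were the lowest of all 24. The mean with FGF2 was 3.10 times lower than in controls at 24 h (log2 -1.63 ± 0.15, limma adjusted p = 4.4e-08) and 12.5 times lower at 48 h (-3.64 ± 0.15, adjusted p = 8.9e-14). The FGF2 effect itself grew with time, with a difference of -2.02 ± 0.21 between 48 and 24 h (adjusted p = 6.6e-07). Replicates were closest with FGF2 at 48 h, where the SD was 4.39% of the mean, and most spread with DCA at 48 h, where it was 23.7%.

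DCA moved ALDH1A2 in opposite directions depending on FGF2. Without FGF2, DCA libraries at 48 h held 3953, 6253 and 6106 normalized counts, all below the 3 control libraries (-0.65 ± 0.15, limma adjusted p = 0.0021, and -0.44, adjusted p = 0.02, without the first DCA replicate). With FGF2, DCA libraries at 48 h held 1623, 1694 and 1541, all above the 3 libraries with FGF2 alone (1.27 ± 0.15, adjusted p = 4.1e-07). The interaction, the effect of DCA in the presence of FGF2 minus its effect in medium alone, was 1.93 ± 0.21 (adjusted p = 1.3e-06). At 24 h the DCA + FGF2 libraries (2245, 2792 and 2585) overlapped those with FGF2 alone, and the interaction was 0.55 ± 0.21 (adjusted p = 0.18). In the order of group means, FGF2 at 48 h was lowest and controls at 48 h (8394 ± 627, SD, n = 3) were highest. Among neighbours in that order only controls at 24 h with DCA at 48 h, DCA at 48 h with DCA at 24 h, and DCA + FGF2 at 24 h with FGF2 at 24 h overlapped.

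Markers of mesenchyme moved with ALDH1A2 under FGF2. Of the marker list, 12 of the 16 genes were lower with FGF2 than in controls at 24 h and 16 of 16 at 48 h. Among all genes tested, 14.3% were lower at 24 h and 27.7% at 48 h. The summed level was 64890 to 75829 normalized counts with FGF2 for 48 h, against 330487 to 390931 in controls, and TCF21, a mesenchyme transcription factor, was at 0 in the FGF2 libraries. With DCA + FGF2 at 48 h, 14 of 16 were higher and 1 lower than with FGF2 alone, and the sum was 164779 to 191342. In that comparison 25.4% of all genes were higher and 27.4% lower. At 24 h the marker sum and ALDH1A2 parted, since the sum was 144024 to 210284 with DCA + FGF2 against 86078 to 113822 with FGF2 alone, while ALDH1A2 overlapped. With DCA alone at 48 h, where ALDH1A2 was lower, 4 of the 16 markers were lower and the sum (234080 to 337533) overlapped that of controls. That count is near the 17.1% of all genes that were lower. In the same comparison 9 of 12 RPE markers were lower and 1 higher (86651 to 173470 summed normalized counts, against 239416 to 255472 in controls). Of 9 endothelial markers 7 were lower (13880 to 29420, against 31658 to 47838). Of 9 blood and macrophage markers 7 were lower and 1 higher (36972 to 46755, against 57377 to 83826). Of 8 neural retina progenitor markers 4 were lower and 2 higher. Markers of other cells fell with FGF2 at 48 h too, as 9 of 9 endothelial markers (7896 to 8830 summed normalized counts, against 31658 to 47838 in controls) and 9 of 9 blood and macrophage markers (14130 to 21434, against 57377 to 83826) were lower. In bulk RNA, fewer cells of a type and less RNA per cell cannot be told apart, and the part of these cells in the ALDH1A2 result was not tested.

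**Figure D1:**
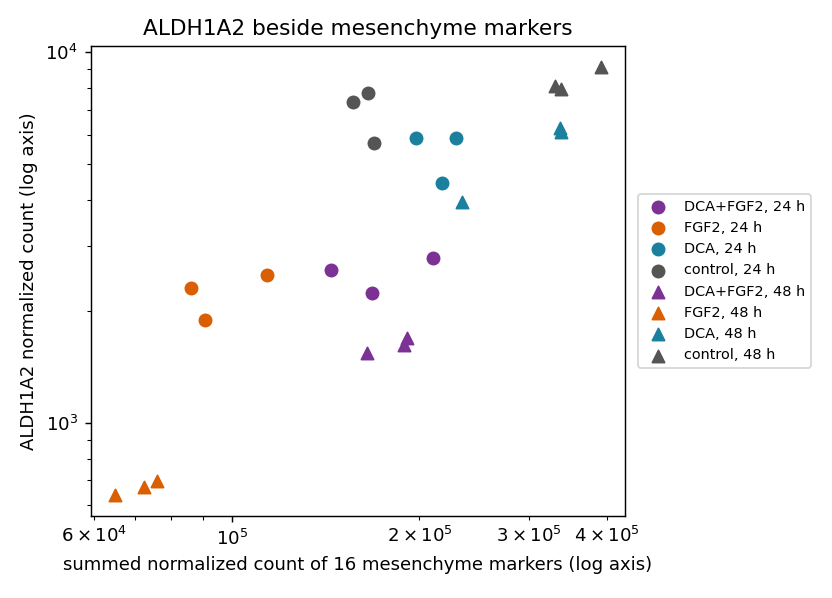
ALDH1A2 (vertical axis, normalized counts, log scale) plotted against the summed level of 16 mesenchyme markers (horizontal axis, normalized counts, log scale), with 1 point for each of the 24 libraries, coloured by treatment, circles for 24 h and triangles for 48 h. The 48 h FGF2 libraries sit at the lower left (639 to 698 and 64890 to 75829) and the 48 h controls at the upper right (7975 to 9115 and 330487 to 390931), while DCA + FGF2 libraries at 24 h reach the mesenchyme sums of 24 h controls at a lower ALDH1A2 level.

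ALDH1A1 (ENSGALG00000015147), the dorsal retinal enzyme, was close to absent without FGF2. The 12 libraries without FGF2 held 0 to 5.6 normalized counts, or at most 5 reads. The gene thus passed the minimum for testing only through libraries with FGF2, and its calls with FGF2 are not independent of that minimum. After 48 h of FGF2 the level was 139, 131 and 111, against 4.04, 3.28 and 0 in controls, and all 3 FGF2 libraries were above all 3 controls (limma adjusted p = 0.025). The call was lost without the first FGF2 replicate (adjusted p = 0.056), the second (0.055) or the third control replicate (0.087). At 24 h the FGF2 replicates disagreed, with 687, 0 and 12.2, against 0, 3.11 and 0 in controls (adjusted p = 0.18), although edgeR (adjusted p = 0.018) and DESeq2 (0.0049) on the recovered reads called it. The spread was as wide with DCA + FGF2, at 0, 535 and 385 after 24 h and 17.6, 70.2 and 662 after 48 h. Replicates of a group thus ran from no read to as many as 644, and no fold change is given for this gene.

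DHRS3 (ENSGALG00000030376), which returns retinaldehyde to retinol, fell with FGF2 and fell further when DCA was added. After 24 h the level was 3067, 2383 and 2310 normalized counts with DCA + FGF2 and 4410, 5514 and 5598 with FGF2, against 8190, 10082 and 8880 in controls. After 48 h it was 1612, 1460 and 2159 with DCA + FGF2 and 3180, 3170 and 3146 with FGF2, against 10754, 9921 and 9587 in controls. At each time these groups formed 3 separate steps with no overlap. The FGF2 effect was -0.81 ± 0.13 at 24 h (limma adjusted p = 6.6e-05) and -1.67 ± 0.13 at 48 h (adjusted p = 8.8e-10), and it differed between the times by -0.86 ± 0.19 (adjusted p = 0.0015). Adding DCA to FGF2 gave a further -1.0 ± 0.13 at 24 h (adjusted p = 6.8e-06) and -0.88 ± 0.13 at 48 h (adjusted p = 9.7e-06).

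**Figure D2:**
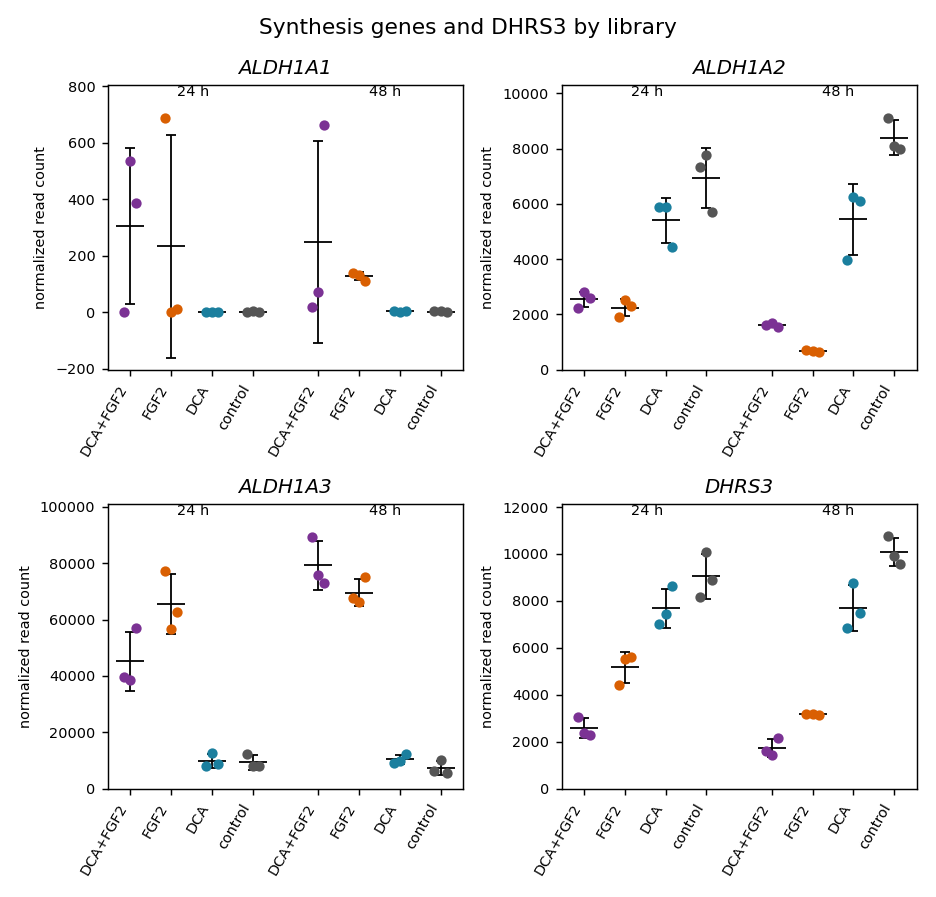
Normalized counts of ALDH1A1, ALDH1A2, ALDH1A3 and DHRS3 in each library (points), with black bars for the mean ± SD of 3 replicates and groups in the order DCA + FGF2, FGF2, DCA and control at 24 h and then at 48 h. ALDH1A3 is high in all 12 libraries with FGF2 (38527 to 89183, against 5487 to 12765 without), ALDH1A2 and DHRS3 are low in them, and ALDH1A1 scatters between replicates.

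DCA alone had a smaller effect on DHRS3. At 48 h the DCA libraries held 6849, 8752 and 7469 normalized counts, all below the controls (-0.40 ± 0.13, limma adjusted p = 0.025). This call was lost without the first DCA replicate (-0.32, adjusted p = 0.12), the third (adjusted p = 0.065), the first control replicate (0.091) or the second (0.051). At 24 h the DCA libraries (7012, 7429 and 8625) overlapped the controls (-0.24 ± 0.13, adjusted p = 0.23). DHRS3 was the only member called for the interaction at 24 h, at -0.77 ± 0.19 (adjusted p = 0.027), so that DCA lowered it more with FGF2 than without. Only 2.92% of all genes were called in that interaction (1.68% higher and 1.24% lower), and the DHRS3 call was lost when any of 7 libraries was left out (adjusted p 0.054 to 0.078). The count of all genes called there was itself uneven, at 238 without the first FGF2 replicate and 230 without the second DCA + FGF2 replicate, against 438 with all libraries. At 48 h the interaction was -0.48 ± 0.19 (adjusted p = 0.057), and it was called with DESeq2 (adjusted p = 0.046), without the first DCA replicate (-0.56, adjusted p = 0.036), without the third DCA + FGF2 replicate (-0.65, adjusted p = 0.0084), and without the first FGF2 (0.048) or the first DCA + FGF2 replicate (0.041) of 24 h.

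Among the CYP26 enzymes, which clear retinoic acid, the sharpest contrast was that of CYP26A1 and CYP26B1 under DCA + FGF2 at 48 h. CYP26A1 (ENSGALG00000033695) held 70.3, 19.9 and 18.4 normalized counts with DCA + FGF2, against 440.4, 550.4 and 420 (419.9) with FGF2 alone. Every DCA + FGF2 library was several times below every FGF2 library, and the mean was 13 times lower (log2 -3.93 ± 0.54, limma adjusted p = 2.7e-06). CYP26B1 (ENSGALG00000016102) held 492, 417 and 432 with DCA + FGF2, against 184, 166 and 213 with FGF2 alone, and the mean was 2.38 times higher (1.25 ± 0.37, adjusted p = 0.0077). CYP26A1 and CYP26B1, which act on the same substrate, thus moved in opposite directions. CYP26C1 (ENSGALG00000043213), a coding neighbour of CYP26A1 in the RefSeq annotation, was low throughout, at 23.8, 5.85 and 9.72 with DCA + FGF2, against 63.5, 42.0 and 75.8 with FGF2 alone (-2.29 ± 0.84, adjusted p = 0.027). Those libraries did not overlap, but the CYP26C1 call rested on 5 to 23 reads per DCA + FGF2 library. It was lost without the first FGF2 replicate (adjusted p = 0.065), the third FGF2 replicate (0.079), the second DCA + FGF2 replicate (0.11) or the third (0.066).

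In all, 6 of the 10 genes were called for DCA + FGF2 against FGF2 at 48 h, 2 higher (ALDH1A2, CYP26B1) and 4 lower (CYP26A1, CYP26C1, DHRS3, RXRG), against 52.8% of all genes (25.4% higher and 27.4% lower). At 24 h, 2 of the 10 were called, both lower (DHRS3, RXRG), against 35.8% of all genes (18.1% higher and 17.8% lower). CYP26A1 at 24 h was already below, at 205, 230 and 170.2 with DCA + FGF2 against 257, 376 and 285 with FGF2, without overlap, but the difference was not called (-0.59 ± 0.54, limma adjusted p = 0.42). For the interaction at 48 h, 2 of the 10 were called, both higher (ALDH1A2 and CYP26B1), against 30.1% of all genes (15.1% higher and 15% lower). CYP26B1 gave 1.78 ± 0.53 there (adjusted p = 0.014), and 1.56 (adjusted p = 0.038) without the first DCA replicate.

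DCA alone also lowered CYP26A1. At 48 h the DCA libraries held 14.6, 139.6 and 99.2 normalized counts, against 345, 241 and 233 in controls, with no overlap (-2.16 ± 0.54, limma adjusted p = 0.0037). The lowest value came from the first DCA replicate, the library that stood apart in its RPE markers, and without it the change was -1.18 (adjusted p = 0.022). In a fit of the compared groups only, the call was lost (adjusted p = 0.079). The interaction for CYP26A1 at 48 h was -1.77 ± 0.76 (adjusted p = 0.085), and it was called without that library (-2.75, adjusted p = 0.00032), with edgeR (-1.99, adjusted p = 0.025) and with DESeq2 (-2.00, adjusted p = 0.0075). CYP26B1 at 48 h held 98.6, 163 and 151 with DCA, against 235, 218 and 144 in controls (adjusted p = 0.29). CYP26C1 at 48 h held 16.8, 18.0 and 0 with DCA, against 46.5, 14.0 and 20.5 in controls (-1.83 ± 0.84, adjusted p = 0.1). That difference was called without the first DCA replicate (-2.51, adjusted p = 0.045) or the second (-2.56, adjusted p = 0.034).

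With FGF2 alone, CYP26A1 lay below control at 24 h and above it at 48 h. At 24 h it held 257, 376 and 285 normalized counts with FGF2, against 613, 582 and 665 in controls, and at 48 h the FGF2 libraries (420 to 550.4) lay above the controls (233 to 345). Libraries did not overlap at either time, as in 44.8% of all genes at 24 h and 64.9% at 48 h. Neither difference was called in the model that pools the spread of all 8 groups (-1.03 ± 0.54, limma adjusted p = 0.16, and 0.79 ± 0.54, adjusted p = 0.22). The pooled spread of this gene includes the first DCA replicate at 48 h. Without that library both were called (adjusted p = 0.021 and 0.048), as they were in a fit of the compared groups only (0.0021 and 0.0051). The change of the FGF2 effect between times was 1.83 ± 0.76 (adjusted p = 0.075), and 0.0051 was its adjusted p without that library.

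CYP26B1 rose with FGF2 at 24 h, where it held 269.9, 168 and 238 normalized counts, against 38.4, 142 and 90.1 in controls (1.47 ± 0.37, limma adjusted p = 0.0044). Without the first control replicate, the lowest of the 3, the change was 0.96 (adjusted p = 0.042). At 48 h the FGF2 libraries (166 to 213) lay within the range of the controls (144 to 235), with a difference of -0.06 ± 0.37 (adjusted p = 0.9). The FGF2 effects differed between the times by -1.53 ± 0.53 (adjusted p = 0.032), a call that was lost when any of 7 libraries was left out (adjusted p 0.055 to 0.11). CYP26C1 held 40.5, 44.8 and 29.2 with FGF2 at 24 h, against 40.6, 22.8 and 78.6 in controls. Its control replicates alone spanned a wider range than the FGF2 replicates, and the FGF2 effect was not called at 24 h (adjusted p = 0.92) or 48 h (adjusted p = 0.22).

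**Figure D3:**
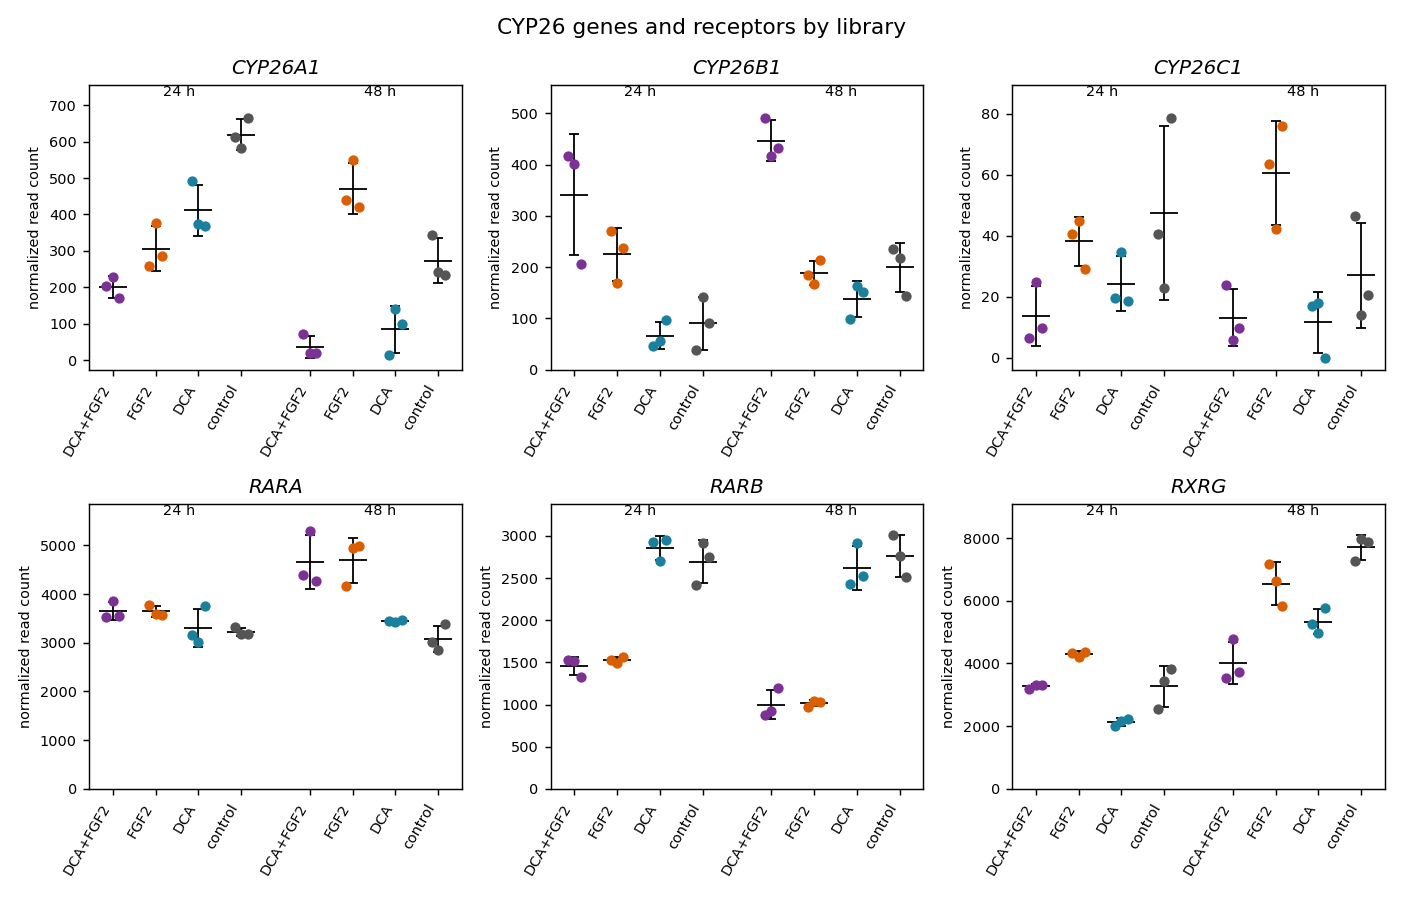
Normalized counts of CYP26A1, CYP26B1, CYP26C1, RARA, RARB and RXRG in each library (points), with black bars for the mean ± SD of 3 replicates and groups in the order DCA + FGF2, FGF2, DCA and control at 24 h and then at 48 h. At 48 h with DCA + FGF2, CYP26A1 is low (18.4 to 70.3, against 420 to 550.4 with FGF2) and CYP26B1 is high (417 to 492, against 166 to 213), and RARB is lower in all libraries with FGF2.

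RARB (ENSGALG00000011298), a receptor whose gene is a classical retinoic acid target, fell with FGF2 at both times. It held 1525, 1497 and 1560 normalized counts after 24 h of FGF2, against 2424, 2918 and 2749 in controls, and 976, 1040 (1039.6) and 1029 after 48 h of FGF2, against 3016, 2768 and 2510 in controls. The FGF2 replicates lay within 100 normalized counts of each other and well below every control. The change was -0.82 ± 0.10 at 24 h (limma adjusted p = 2.7e-06) and -1.44 ± 0.10 at 48 h (adjusted p = 1.6e-10), and the effect was larger at 48 h by a difference of -0.63 ± 0.15 (adjusted p = 0.0025). RARB libraries with DCA + FGF2 overlapped those with FGF2 alone at both times. They held 1525, 1512 and 1330 at 24 h and 877, 923 and 1198 at 48 h, and the differences from FGF2 alone were -0.07 ± 0.10 (adjusted p = 0.63) and -0.04 ± 0.10 (adjusted p = 0.8). DCA alone differed from control by 0.09 ± 0.10 at 24 h (adjusted p = 0.6) and -0.08 ± 0.10 at 48 h (adjusted p = 0.6).

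RARA (ENSGALG00000037935), the most widely expressed receptor of the family, rose with FGF2 at 48 h. It then averaged 4695 ± 463 normalized counts with FGF2 and 3082 ± 272 in controls (SD, n = 3 each), a ratio of 1.52 (0.61 ± 0.09, limma adjusted p = 5.4e-06). At 24 h it averaged 3642 ± 118 with FGF2 and 3224 ± 78.3 in controls, and the difference was not called (0.18 ± 0.09, adjusted p = 0.15). Every FGF2 library was above every control, where 44.8% of all genes had no overlap. In a fit of the compared groups only, the 24 h difference was called (adjusted p = 0.044). The effects differed between the times by 0.43 ± 0.13 (adjusted p = 0.012). With DCA + FGF2 at 48 h the mean was 4650 ± 556, and the difference from FGF2 alone was -0.02 ± 0.09 (adjusted p = 0.9).

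RXRG (ENSGALG00000040730), an RXR known in the retina for its expression in developing cone photoreceptors, followed a course unlike that of the RAR genes. In controls it held 7261, 7985 and 7889 normalized counts at 48 h, against 2558, 3438 and 3837 at 24 h, and the libraries did not overlap (1.25 ± 0.12, limma adjusted p = 3.5e-07). In that comparison of culture times 2 of the 10 genes were called, against 17% of all genes (9.69% higher and 7.3% lower), the other being CYP26B1 (1.29 ± 0.37, adjusted p = 0.02). The CYP26B1 call was lost without the first control replicate at 24 h (0.78, adjusted p = 0.16), the first at 48 h (adjusted p = 0.084) or the second at 48 h (adjusted p = 0.064). CYP26A1 held 345, 241 and 233 normalized counts in controls at 48 h, against 613, 582 and 665 at 24 h (-1.20 ± 0.54, adjusted p = 0.14, and 0.014 without the first DCA replicate at 48 h). RXRG was lower with DCA wherever the compared groups differed in DCA alone.

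DCA alone gave RXRG 1993, 2177 and 2225 normalized counts at 24 h, below the 3 controls (-0.60 ± 0.12, limma adjusted p = 0.001), and 5263, 4972 and 5779 at 48 h, below the 3 controls (-0.53 ± 0.12, adjusted p = 0.0014). RXRG was the single member called for DCA at 24 h, where 20.1% of all genes were called (10.6% higher and 9.48% lower). ALDH1A2 was called there as well without the third control replicate (-0.49, adjusted p = 0.042) or without the first DCA replicate at 48 h (-0.36, adjusted p = 0.038). At 48 h, 4 of the 10 were called for DCA, all lower (ALDH1A2, CYP26A1, DHRS3, RXRG), against 34.1% of all genes (16.9% higher and 17.1% lower). Most RPE, endothelial and blood markers were lower there too, as given above, and the part of these cells in the 4 results was not tested. Without the first DCA replicate at 48 h, RXRG changed by -0.52 (adjusted p = 0.006).

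With DCA + FGF2, RXRG held 3194, 3316 and 3322 normalized counts at 24 h, against 4342, 4215 and 4359 with FGF2 alone (-0.39 ± 0.12, limma adjusted p = 0.012). At 48 h it held 3532, 4781 and 3739, against 7189, 6625 and 5825 (-0.71 ± 0.12, adjusted p = 2.7e-05). The DCA and DCA + FGF2 libraries were below their counterparts without DCA in all 4 comparisons, with no overlap. Of all genes tested, 36.7% (24 h) and 45.9% (48 h) had no overlap for DCA alone, and 47% and 61.2% for DCA + FGF2 against FGF2. The interaction was 0.21 ± 0.17 at 24 h (adjusted p = 0.59) and -0.18 ± 0.17 at 48 h (adjusted p = 0.46). FGF2 itself raised RXRG at 24 h by 0.41 ± 0.12 (adjusted p = 0.0098), a call lost without the first control replicate (0.25, adjusted p = 0.09), and at 48 h the difference was -0.24 ± 0.12 (adjusted p = 0.089). At 48 h every FGF2 library was below every control, where 64.9% of all genes had no overlap. The lower level was called in a fit of the compared groups only (adjusted p = 0.024) and without the first control replicate of 24 h (0.035). The FGF2 effect differed between the times by -0.65 ± 0.17 (adjusted p = 0.0048).

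The remaining group levels complete the picture for the groups with few calls. With DCA alone at 24 h, ALDH1A2 held 5881, 5875 and 4443 normalized counts and overlapped its controls (limma adjusted p = 0.1), and ALDH1A3 held 8159, 12765 and 8636 and overlapped its controls (adjusted p = 0.88). CYP26A1 held 493, 375 and 367 there, below every control library, but the difference was not called (adjusted p = 0.48, and 0.03 in a fit of the compared groups only). CYP26B1 held 46.6, 56.2 and 96.0 and CYP26C1 19.5, 34.8 and 18.5 with DCA at 24 h, both within or near the range of their controls (adjusted p = 0.6 and 0.55). RARA averaged 3304 ± 389 with DCA at 24 h and 3449 ± 20.2 with DCA at 48 h (SD, n = 3 each), and the differences from control were 0.03 ± 0.09 (adjusted p = 0.87) and 0.17 ± 0.09 (adjusted p = 0.16). Under DCA + FGF2 at 24 h, CYP26B1 held 417, 402 and 205 and overlapped FGF2 alone (0.56 ± 0.37, adjusted p = 0.26), while CYP26C1 held 6.28, 24.8 and 9.63, below every FGF2 library without being called (-1.61 ± 0.84, adjusted p = 0.14, and 0.038 without the third DCA replicate at 48 h). In the order of CYP26B1 means, DCA + FGF2 at 48 h was highest (447 ± 39.8) and DCA at 24 h lowest (66.3 ± 26.2), and FGF2 at 48 h with DCA at 48 h were the only neighbours whose libraries did not overlap. For CYP26C1 every pair of neighbouring groups overlapped.

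**Figure D4:**
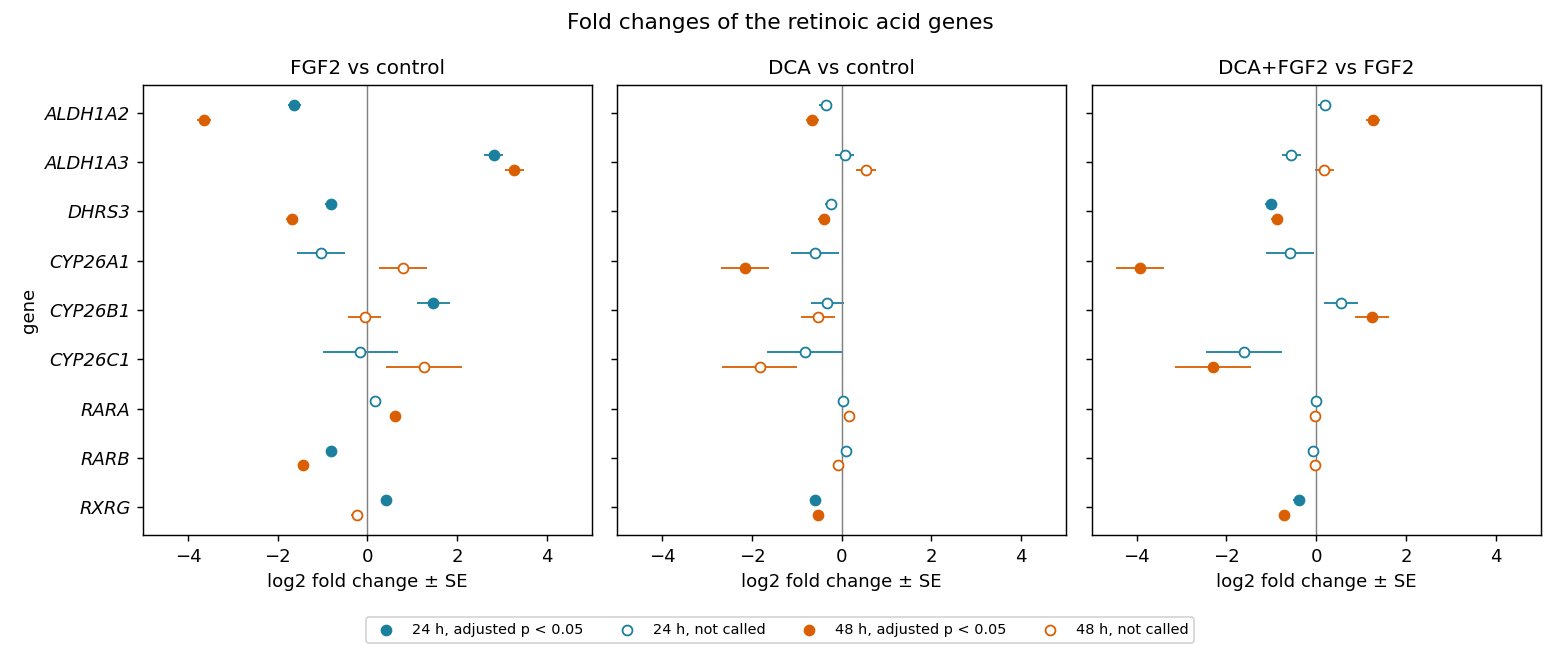
Log2 fold change ± SE of 9 of the 10 genes (ALDH1A1 is left out) for FGF2 against control, DCA against control and DCA + FGF2 against FGF2, with blue for 24 h, orange for 48 h and filled points for an adjusted p under 0.05. FGF2 gives the widest spread, with ALDH1A3 at 2.82 and 3.28 and ALDH1A2 at -1.63 and -3.64, and DCA + FGF2 at 48 h holds the lowest value, CYP26A1 at -3.93.

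In the difference of FGF2 effects between 48 and 24 h, 6 of the 10 genes were called, against 30.2% of all genes (14.7% positive and 15.4% negative). RARA was the only positive one, and ALDH1A2, CYP26B1, DHRS3, RARB and RXRG were negative. Markers of RPE and of neural retina progenitors also differed with FGF2, beside the mesenchymal, endothelial and blood markers given above. With FGF2 at 48 h all 12 RPE markers were lower than in controls (58090 to 85884 summed normalized counts, against 239416 to 255472), and all 8 neural retina progenitor markers were higher (101909 to 105555, against 18894 to 22607). Among all genes at 48 h, 27.7% were lower and 26.9% higher. At 24 h the RPE sums of FGF2 and control libraries overlapped, with 2 markers higher and 3 lower (15.5% and 14.3% of all genes). With DCA + FGF2 at 48 h, 6 of the 8 progenitor markers were lower than with FGF2 alone (27.4% of all genes), and the sum was 62923 to 72395. The part of these cell types in the results on the 10 genes was not tested.

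Several genes that act before retinaldehyde also changed with FGF2. RDH10, which makes most of the retinaldehyde in mouse embryos, averaged 6370 ± 619 normalized counts after 48 h of FGF2 and 29302 ± 733 in controls (SD, n = 3 each; -2.21 ± 0.13, limma adjusted p = 1.5e-11), and fell by 1.91 on the log2 scale at 24 h (adjusted p = 6.7e-10). STRA6, the membrane receptor for retinol uptake, averaged 10179 ± 911 with FGF2 and 45642 ± 2566 in controls at 48 h (-2.17 ± 0.21, adjusted p = 1.5e-08). Expression of STRA6, RDH10 and DHRS3 was thus lower at 48 h while that of ALDH1A3 was higher. Markers of RPE were lower in that comparison too, and the part of cell types in the falls of STRA6 and RDH10 was not tested. Of 10 genes tested for retinoid uptake, binding and storage, 2 were higher and 4 lower at 48 h (median log2 -0.20). Of 15 genes listed as other retinol and retinal enzymes, 3 were higher and 8 lower (median -0.42). Among all genes, 26.9% were higher, 27.7% lower and the median was -0.02. Called genes were thus 6 of 10 for uptake, binding and storage and 11 of 15 for the enzymes, against 54.6% of all genes. The lists were not tested, and their counts are given as a description. Genes of the enzyme list that rose include DHRS11 (1.96 ± 0.17, adjusted p = 3.2e-09) and the carotenoid oxygenase BCO2 (3.27 ± 0.40, adjusted p = 4.5e-07). Those that fell include BCO1, which cleaves beta-carotene to retinaldehyde (-2.35 ± 0.29, adjusted p = 6.8e-07). Whether each listed gene acts on retinoids in these explants was not tested.

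Of 14 other receptors and cofactors tested, 3 were higher and 6 lower with FGF2 at 48 h (median -0.20), near the 54.6% called among all genes, and the call counts fell to 5 in all without the first control replicate and to 4 without the second FGF2 replicate. RARG, the remaining RAR gene, averaged 4439 ± 504 normalized counts with DCA + FGF2 and 2298 ± 99.1 with FGF2 alone at 48 h (0.94 ± 0.11, limma adjusted p = 3.3e-07). It was also higher with DCA alone than in controls (0.59 ± 0.11, adjusted p = 0.00035) and slightly higher with FGF2 alone than in controls (0.35 ± 0.11, adjusted p = 0.011). RXRA fell with FGF2 at 24 h (-0.68 ± 0.17, adjusted p = 0.0043). The corepressor NRIP1 was higher with DCA + FGF2 than with FGF2 alone (0.76 ± 0.17, adjusted p = 0.00055).

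A list of 31 genes often described as retinoic acid targets moved in both directions. Of its 17 tested rows, which hold 16 genes since TGM2 has 2 rows, 3 were higher and 8 lower with FGF2 at 24 h, where 15.5% of all genes were higher and 14.3% lower. At 48 h 5 were higher and 6 lower, near the 54.6% called among all genes. All 11 HOX rows stayed at or below a group mean of 12 normalized counts and were not tested. FOXC1, a forkhead factor, fell with FGF2 at 48 h (-2.09 ± 0.17, limma adjusted p = 1.3e-09). FOXC1 is also on the list of mesenchyme markers above. RARRES1 fell (-1.81 ± 0.20, adjusted p = 1.1e-07), while the homeobox factor MEIS1 rose (1.22 ± 0.12, adjusted p = 2.3e-08). With DCA at 48 h, 9 of the 17 rows were lower and 1 higher than in controls (median -0.27), where 17.1% of all genes were lower and 16.9% higher. With DCA + FGF2 at 48 h, 5 were higher and 7 lower than with FGF2 alone (25.4% and 27.4% of all genes), among them RET (2.08 ± 0.20, adjusted p = 1.7e-08) and MEIS1 (-1.11 ± 0.12, adjusted p = 1.3e-07).

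The retinal axis along which ALDH1A1 and ALDH1A3 are set out was read through 14 tested genes of dorsoventral eye patterning. With FGF2 at 48 h, 6 were higher and 3 lower than in controls (median 0.34), against 26.9% and 27.7% of all genes. The ventral homeobox gene VAX1 averaged 791 ± 55.3 normalized counts with FGF2 and 227 ± 20.0 in controls (1.80 ± 0.15, limma adjusted p = 1.4e-09), and the ventral ephrin receptor EPHB2 rose too (1.09 ± 0.09, adjusted p = 2.5e-09). SMOC1, an antagonist of bone morphogenetic protein (BMP) signalling in frog embryos, averaged 5583 ± 623 with FGF2 and 120 ± 35.0 (119.84) in controls (5.57 ± 0.22, adjusted p = 5.2e-14). Of the dorsal genes, EFNB2 (-1.25 ± 0.12, adjusted p = 7.8e-09) and BMP4 (-0.88 ± 0.17, adjusted p = 0.00011) fell. Endothelial and mesenchyme markers fell in the same comparison, and the part of cell types in the patterning results was not tested. The means of the dorsal genes TBX2 (1035 with FGF2, 981 in controls), TBX3 (592, 462), TBX5 (147, 138) and GDF6 (49.4, 25.55) did not fall. BMP4 at 24 h averaged 1929 ± 213 with FGF2, above the 1105 ± 79.5 of controls. With DCA + FGF2 at 48 h, SMOC1 averaged 496 ± 108, against 5583 ± 623 with FGF2 alone (-3.51 ± 0.22, adjusted p = 3.5e-11), and 7 of the 14 genes were lower and 4 higher, against 27.4% and 25.4% of all genes. The ALDH1A3 libraries of these groups overlapped, as given above.

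Across the 24 libraries, the 10 genes differed in how closely other genes tracked them. Among 10092 other genes with a symbol and a mean of at least 100, the closest to ALDH1A3 were JAM3 (Pearson r = 0.97), KK34 (0.97) and PDE1B (0.97). The closest to ALDH1A2 was GPC3 (0.97), which was also among the 3 closest to RARB (0.96). The closest to DHRS3 was VAT1L (0.97) and the closest to RARB was SLC13A5 (0.96). For CYP26A1 it was TP53I11 (0.90), for CYP26B1 EGLN3 (0.88), for RARA BEAN1 (0.91), for RXRG KCNMB4 (0.90), for ALDH1A1 KDM8 (0.85) and for CYP26C1 FBXW11 (0.78). Among the members, RARB and ALDH1A3 ran opposite (-0.95), and RARB ran with DHRS3 (0.92) and ALDH1A2 (0.92). These correlations are descriptions over libraries of the same 8 groups and carry the group differences given above.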

How the data were processed

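The signal values deposited for each gene are counts that the authors divided by a size factor of the library. The submitters' processing notes name the build GRCg6a, the aligner STAR (2.7.5b), the assembler StringTie (2.1.4), the trimmer Trim Galore (0.6.4) and DESeq2 (1.34.0), and the strand setting is not given in the sources used here. In the RefSeq annotation of another build (GRCg7b, used for names and neighbours), 6 of the 10 genes overlap another gene, so their reads may be shared. Among them are DHRS3 (9 others), CYP26C1 (EXOC6) and ALDH1A1 (LOC112530584). Per the labels, a directional poly(A) kit was used on 100 ng of RNA, with 13 cycles of PCR.

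Values were taken as log2(normalized count + 1), genes with a mean of at least 10 were kept, and limma-trend (limma 3.58.1, R 4.3.3) was fitted to 8 group means, with Benjamini-Hochberg adjustment over 15001 genes in each of 10 comparisons. The SE pools the spread of all groups, adding 1 draws the fold changes of low genes towards 0, and a fold on this scale is not the ratio of means that is also given. Whole numbers, called reads here, were recovered for 100% of values within 0.001, with which edgeR 4.0.16 and DESeq2 1.42.0 served as alternatives. Whether they are counted reads or whole-number estimates is not known. Steps were tried on simulated counts with a fixed spread and changes planted in a single group. That setting is simpler than these data and carries no weight for the calls given here. The members and lists were chosen with earlier results of these data known. Beyond the members, the text names up to 6 genes per list with the smallest adjusted p in the comparison described and up to 3 genes per member with the highest correlation. TBX2, TBX3, TBX5 and GDF6 are named regardless of rank, as dorsal genes whose means did not fall. Marker genes are given as counts and sums. Of 98 other genes listed for the pathway, 85 were in the table.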

Additional observations from a re-analysis of the deposited data

Results flagged for a closer look

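The results below are differences between effects that were tested as such, each with an adjusted p from limma under 0.05. They are listed because 1 treatment changed a gene differently in 2 settings. Such calls were made for 2.92% of all genes in the interaction at 24 h and for 30.1% at 48 h. In the change of the FGF2 effect they were made for 30.2% of all genes. Calls in the interaction at 48 h and in the change of the FGF2 effect were thus common. For DCA with FGF2 minus DCA without FGF2, DHRS3 gave -0.77 at 24 h (log2, adjusted p = 0.027), ALDH1A2 gave 1.93 at 48 h (1.3e-06) and CYP26B1 gave 1.78 at 48 h (0.014). For ALDH1A2 the DCA effect itself changed sign, being 1.27 with FGF2 and -0.65 without it. Of the 16 mesenchyme markers, 15 were also called higher in the interaction at 48 h (median log2 1.52), against 15.1% of all genes. So were 7 of 9 endothelial and 5 of 12 RPE markers (1 lower), while 5 of 8 neural retina progenitor markers were lower. In the change of the FGF2 effect, 15 of the 16 mesenchyme markers were called lower (median -1.60), the direction of ALDH1A2. That held for 15.4% of all genes, 8 of 9 endothelial and 10 of 12 RPE markers, while 5 of 8 progenitor markers were higher (2 lower). The part of these cell types in the ALDH1A2 results was not tested. For the FGF2 effect at 48 h minus that at 24 h, ALDH1A2 gave -2.02 (6.6e-07), DHRS3 -0.86 (0.0015), RARB -0.63 (0.0025), RXRG -0.65 (0.0048), RARA 0.43 (0.012) and CYP26B1 -1.53 (0.032). The effect of FGF2 on ALDH1A2, DHRS3 and RARB kept its direction and was larger at 48 h. That on CYP26B1 was 1.47 at 24 h and -0.06 at 48 h, and that on RXRG was 0.41 at 24 h and -0.24 at 48 h, where neither 48 h value was called. The DHRS3 call at 24 h and the CYP26B1 call on the change of the FGF2 effect were each lost when any of 7 libraries was left out (adjusted p 0.054 to 0.078 for DHRS3 and 0.055 to 0.11 for CYP26B1).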

How the results depend on the processing

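No call reversed its direction in any of the settings tried, which were 9 other settings and each library left out in turn. The number of members called was within 1.5 times the reported one in 88 of 90 cases under the other settings and in 228 of 240 with a library left out. For DCA at 24 h it was 2 in a fit of the compared groups only and 1 to 2 with a library left out (2 without the third control replicate or the first DCA replicate at 48 h), against 1. For the interaction at 48 h it was 4 with DESeq2 and 2 to 4 with a library left out, against 2, the 4 being reached without the first DCA replicate. For the interaction at 24 h it was 0 to 1 (lowest without any of 7 libraries) against 1, and for culture time in controls 1 to 3 (lowest without the first replicate of either time) against 2. Over all genes, the interaction at 24 h had 818 calls with DESeq2, against 438.

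The fit with a replicate block gave the same counts of members called, 6 and 6 for FGF2, 1 and 4 for DCA, 2 and 6 for DCA + FGF2 against FGF2 (24 and 48 h), 1 and 2 for the interactions, 2 for time and 6 for the change of the FGF2 effect. No sign of pairing by replicate number was seen. Libraries of the same number correlated in their deviations at -0.092 to 0.097, with 0 of 84 pairs above 0.1, and 8 of 24 libraries were closest to their own number. The check takes all tested genes together, so it could miss a shared batch that touches few genes.

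Counts of called genes in the 5 pathway lists moved in 9 of 450 cases under the other settings and 31 of 1200 with a library left out. Among single members in single comparisons, 29 calls were lost and 30 gained over all the fits with a library left out, and most are given beside their values above. CYP26C1 had 0 to 138 reads per library, few enough for counting error to matter. P-values of the main model rest on the spread between pools of explants within groups, with 3 pools in each group. That spread is pooled over all 8 groups and moderated across genes, so libraries outside a comparison can change its calls. The cause of these dependences was not tested.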

Other observations

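Several genes of retinol transport differed between 48 and 24 h of culture in control explants. RBP4, the plasma carrier of retinol, averaged 17328 ± 1320 normalized counts at 48 h and 540 ± 158 (539.87) at 24 h (SD, n = 3 each; log2 5.04 ± 0.23, limma adjusted p = 4.3e-12). RBP3, the retinoid carrier between photoreceptors and RPE, changed by 4.12 ± 0.26 (adjusted p = 8.5e-10), and TTR, which carries RBP4 in blood, by 2.77 ± 0.43 (adjusted p = 0.00011). CRABP2, which binds retinoic acid in the cell, averaged 847 ± 56.8 at 48 h and 3459 ± 354 at 24 h (-2.03 ± 0.21, adjusted p = 1e-06). Of the 10 genes tested for retinoid uptake, binding and storage, 5 were higher and 1 lower at 48 h, against 9.69% and 7.3% of all genes. Time in culture and age of the tissue cannot be told apart here. Of the markers, 5 of 9 for blood and macrophages were higher and 2 lower, and 6 of 16 for mesenchyme were higher and 2 lower. The part of cell types was not tested.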
